A study of Mus musculus with 2 samples.

Results

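Solute carriers are membrane proteins that move a small molecule or ion across a membrane, and are numbered in families by sequence. Their transcripts were described here in haematopoietic stem cells (HSC) of mouse bone marrow. Members were the genes whose symbol begins with Slc, a family number, a and a member number, and whose brightest probe set lay above the floor on at least 1 of the 2 arrays. The floor is the median intensity over all non-control probe sets of both arrays, 441.05, rounded to a whole number. A total of 165 genes met this rule, of 245 with such a symbol and of 12393 genes with a single symbol on the array. They belonged to 44 families. The members were thus selected on their intensities on these same 2 arrays, so lying above the floor is no result.

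The series compares 1 library of primitive HSC with 1 library of maturing HSC, on 1 Affymetrix array each. Per the labels, both populations were sorted by flow cytometry from mouse bone marrow after 30 min in culture, and neither was treated. The sources used here do not give mouse strain, genotype, sex, age or the sorted surface phenotype. What was hybridised was cRNA transcribed from the inserts of a PCR-amplified, size-selected, cloned cDNA library, so each value is a share of such a library, and fewer expressing cells and less RNA per cell cannot be told apart. With 1 array per group there is no spread between samples, and differences are described without a test.

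Blood stem cells depend on carriers at several points. Glucose enters through the facilitative Slc2 carriers, and glutamine and essential amino acids enter through the Slc1, Slc7 and Slc38 families, with Slc3a2 as the heavy chain that brings several Slc7 light chains to the cell surface. Slc25 carriers of the inner mitochondrial membrane exchange nucleotides, phosphate, amino acids and cofactors between matrix and cytosol. Iron, zinc and copper carriers supply enzymes and, in red cell precursors, haem synthesis.

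Values are MAS5 signal intensities in arbitrary units on a linear scale. Ratios are log2 of primitive over maturing, after intensities under the floor were set to it. Where 1 array was at the floor the ratio is a bound, written as at least so many fold. Intensities of different probe sets are not comparable with each other, so only the 2 arrays are compared. An intensity above the floor is not a detection call: kidney or neuron carriers such as Slc5a2 (1689 in primitive and 1565 in maturing HSC) and Slc12a5 (2131 and 1344) also passed it.

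Of the 165 members, 105 were above the floor on both arrays, 27 on the primitive array only and 33 on the maturing array only. Just inside the rule lay Slc7a13, Slc7a10, Slc15a3, Slc22a26 and Slc16a6, whose brighter array read between 441.9 and 452.8. Just outside lay Slc4a3, Slc4a1, Slc43a3, Slc13a3 and Slc45a3, between 425.7 and 433.7. Slc4a1, the anion exchanger of the red cell membrane, read 433.5 in primitive and 216.5 in maturing HSC. In 3 members the symbol goes on with further letters and the product is a regulator or binding partner, not a carrier: Slc9a3r1, Slc9a3r2 and Slc4a1ap.

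With bounds entered at their bound, most carrier transcripts read within 2-fold in the 2 libraries. Within 2-fold lay 132 of the 165 members (80.0%), against 5908 of 8852 measured genes (66.7%). Both counts take in bounds under 2-fold, where the difference may be larger, and only 105 of the members were above the floor on both arrays. At least 2-fold higher in primitive HSC were 19 members (11.5%), where 15.6% of all measured genes were, and at least 2-fold lower were 14 members (8.48%), where 17.6% were. At least 4-fold higher was 1 member, where 3.45% of all measured genes were, and at least 4-fold lower were 3 members, where 4.69% were. By any amount, 92 members (55.8%) were higher and 73 lower in primitive HSC, where 52.7% of all measured genes were higher. These shares over all measured genes are the background for the counts by class, family and gene list below. The median log2 ratio was 0.09 over the members and 0.07 over all measured genes.

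A gene can pass 4-fold only if 1 array reads at least 1764, which is 4 times the floor. Only 34 members (20.6%) did, against 33.6% of all measured genes. Of those 34 the same 4 members were at least 4-fold apart (11.8%), against 24.2% of all such genes. By direction, 1 of the 34 was higher and 3 were lower in primitive HSC, where 10.3% and 13.9% of such genes were. The SD of the log2 ratio was 0.72 for the 105 members that both arrays put above the floor and 1.07 for the 5525 such genes. Of these 105 members, 12 were at least 2-fold higher and 4 at least 2-fold lower in primitive HSC, where 16.3% and 15.2% of such genes were. None was at least 4-fold higher and 1 was at least 4-fold lower, where 3.6% and 3.49% were. The counts rest on the floor: with it at percentile 25 of the probe sets, 9 members were at least 4-fold higher (5.46%, against 6.78% of all measured genes) and 14 at least 4-fold lower (8.49%, against 8.89%). With it at percentile 75 none of 73 members was in either direction, where 3.31% and 2.53% of all measured genes were. The 2-fold counts moved too, to 34 higher and 29 lower of 165 members with the floor at percentile 25. With the arrays put on the scale of the hybridisation controls they were 2 higher and 51 lower of 156 members. The share of all measured genes at 2-fold was not counted for these settings.

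**Figure D1:**
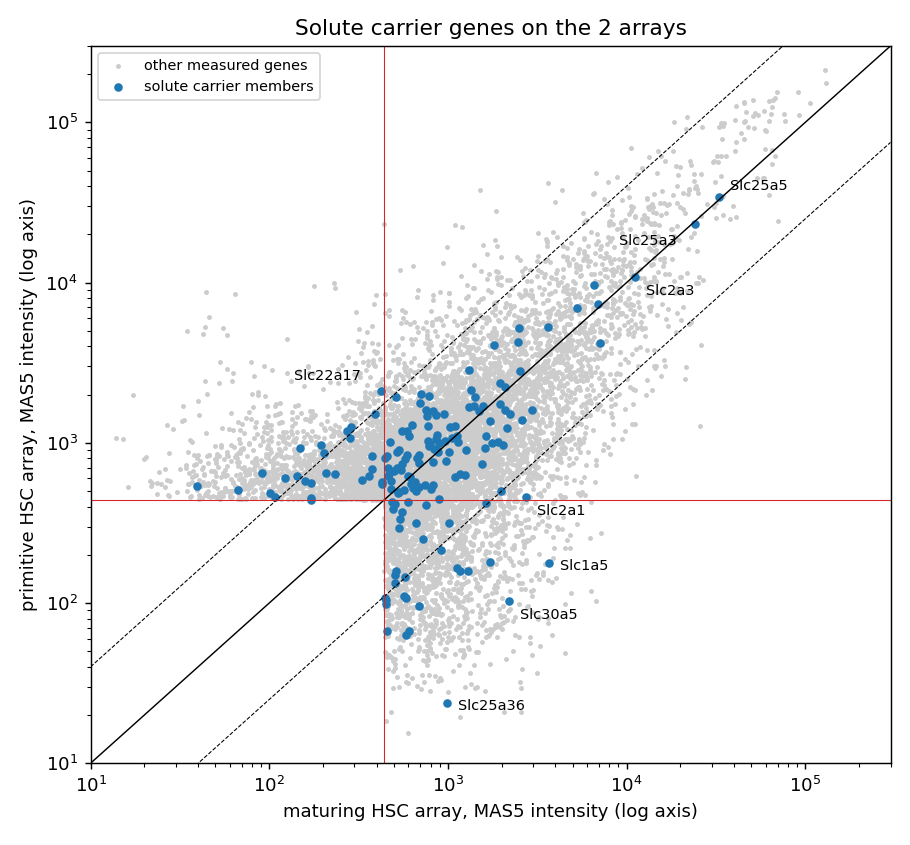
Intensity on the primitive array (vertical, log axis) and on the maturing array (horizontal, log axis) for the 165 members in blue and the other measured genes in grey; red lines mark the floor, the solid line equal values and dashed lines 4-fold. Points are drawn before intensities under the floor were set to it. Members with 1 array under the floor, such as Slc25a36 (23.9 in primitive and 985.2 in maturing HSC), can therefore lie beyond a dashed line without being counted. With the floor applied, Slc1a5, Slc2a1 and Slc30a5 were past 4-fold on the maturing side and Slc22a17 on the primitive side.

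The 4 members past 4-fold serve glutamine, glucose, zinc and iron-related transport. Slc1a5, an exchanger of neutral amino acids and a main importer of glutamine, read 177.7 in primitive and 3693 in maturing HSC, at least 8.37-fold lower in primitive. Slc2a1, the glucose carrier GLUT1, read 456.6 in primitive and 2732 in maturing HSC, a log2 ratio of -2.58. Its primitive value was only just above the floor.

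Slc30a5, which loads zinc into the secretory pathway, read 103.7 in primitive and 2198 in maturing HSC, at least 4.98-fold lower in primitive. In the other direction, Slc22a17, a cell surface receptor for the iron-binding protein lipocalin 2, read 2099 in primitive and 422.8 in maturing HSC. It was at least 4.76-fold higher in the primitive library. Slc1a5, Slc30a5 and Slc22a17 each had 1 probe set, so no second probe set bears on their ratio.

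Slc2a1 had 3 measured probe sets, and all read lower in primitive HSC. The next brightest gave 626.9 in primitive and 1870.0 in maturing HSC (-1.58). The dimmest gave 692.5 in primitive HSC, against 1241 in maturing HSC (-0.84). The size of the Slc2a1 difference therefore depends on the probe set: over the median of the 3 it was -1.58, and without probe sets whose name marks shared or variant transcripts it was -0.84. The sole probe set of Slc22a17 has such a name, so Slc22a17 drops out there.

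The promoter windows of these genes are shown because they differ most between the libraries. RefSeq windows on GRCm38.p6, from 250 bases before to 50 after the start, were found for 122 of the 165 members (163 windows), and for Slc2a1, Slc30a5 and Slc22a17 among the 4. No window of Slc1a5 is shown. Capitals mark the GC box (GGGCGG, the Sp1 motif) and the 5 letters ACGTG, the core of the hypoxia response element, on either strand. The E-box CACGTG, bound by Myc and other basic helix-loop-helix factors, holds that core on both strands.
Slc2a1, chr4:119108495-119108794, plus strand: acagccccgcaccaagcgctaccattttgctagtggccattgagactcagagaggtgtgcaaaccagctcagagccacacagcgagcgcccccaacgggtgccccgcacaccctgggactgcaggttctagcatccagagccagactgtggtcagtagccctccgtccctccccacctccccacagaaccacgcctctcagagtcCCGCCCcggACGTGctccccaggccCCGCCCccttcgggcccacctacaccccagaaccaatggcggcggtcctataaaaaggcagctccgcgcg
Slc30a5, chr13:100833378-100833677, minus strand: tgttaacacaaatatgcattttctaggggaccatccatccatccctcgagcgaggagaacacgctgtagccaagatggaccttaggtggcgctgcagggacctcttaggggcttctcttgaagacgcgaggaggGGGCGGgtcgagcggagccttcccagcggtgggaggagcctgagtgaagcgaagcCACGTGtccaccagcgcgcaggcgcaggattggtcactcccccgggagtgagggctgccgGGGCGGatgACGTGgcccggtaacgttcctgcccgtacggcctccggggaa
Slc22a17, chr14:54913083-54913382, minus strand: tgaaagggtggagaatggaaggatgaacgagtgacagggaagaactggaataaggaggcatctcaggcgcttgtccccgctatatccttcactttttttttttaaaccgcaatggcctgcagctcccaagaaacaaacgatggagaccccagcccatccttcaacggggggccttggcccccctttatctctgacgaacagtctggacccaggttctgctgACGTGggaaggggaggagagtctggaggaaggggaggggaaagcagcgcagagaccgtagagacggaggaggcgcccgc
The Slc2a1 window holds 2 GC boxes and 1 ACGTG, and also 1 CCAAT box (CCAAT) and 1 TATA box (TATAAA). The Slc30a5 window holds 2 GC boxes, 1 E-box with another ACGTG outside it, and 1 CCAAT box on the other strand. The Slc22a17 window holds ACGTG once and no GC box. Across the genome table, a GC box stood in 35.7% of 32851 windows and in 66.9% of the members' windows, ACGTG in 19.6% and 25.2%, the E-box in 7.15% and 12.3%, CCAAT in 37.4% and 36.8% and TATAAA in 13.6% and 7.98%. These are matches of letters only. The genome table covers 27025 genes, many more than the 8852 measured here, and the shares over measured genes were not counted. Whether these shares are particular to carriers was therefore not tested.

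Below 4-fold, several other amino acid carriers read lower in primitive HSC. Slc15a2, a proton-coupled importer of small peptides, read 498.9 in primitive and 1992 in maturing HSC (log2 ratio -1.998). Slc38a1, a sodium-coupled glutamine carrier, read 422.0 and 1638 and was at least 3.71-fold lower. Slc7a6, a light chain that exchanges arginine for glutamine, read 157.4 and 1291 and was at least 2.93-fold lower, and its second probe set read 101.7 and 647.3. These 3 read lower in primitive HSC in every alternative that gave a value.

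Carriers that pair with Slc3a2 did not read alike. Slc3a2, the heavy chain CD98, read 4175 in primitive and 7103 in maturing HSC (-0.77). Its light chains Slc7a11, the cystine and glutamate exchanger, and Slc7a5, the main importer of leucine, stood at -0.87 and 0.10. Slc7a11 read 640.1 and 1172, and Slc7a5 read 2234 and 2084. The light chain Slc7a8 read 623.2 in primitive HSC and was below the floor in maturing HSC, and Slc7a7 was under the floor on both arrays.

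Other amino acid carriers read higher in primitive HSC. Slc15a4, which exports histidine and peptides from lysosomes, read 1767 in primitive and 698.8 in maturing HSC (1.34). Slc7a1, the arginine carrier that also serves as receptor of ecotropic murine leukaemia virus, read 1066 and 283.7 and was at least 2.42-fold higher. Slc7a3, a related arginine carrier, read 1185 and 554.8 (1.10), and Slc1a4, a neutral amino acid exchanger related to Slc1a5, read 824.0 and 456.7 (0.85). The bright glutamine carrier Slc38a2 read 7379 and 6924, a log2 ratio of 0.09 that turned below 0 after quantile normalization, lowess or scaling to the hybridisation controls.

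Slc38a10 shows how far probe sets of 1 gene can part. Its brightest probe set read 4091 in primitive and 1809.7 in maturing HSC (1.18). Another read 538.7 and 2492 (-2.21). Of 49 matched amino acid and peptide genes, 33 were measured, 22 higher and 11 lower in primitive HSC, with 5 and 4 at least 2-fold apart. Of all measured genes, 52.7% were higher, and 15.6% and 17.6% were at least 2-fold higher and lower. This class takes in the Slc6 family, with 9 measured, 8 higher and 1 lower (median 0.42). The Slc7 family, with 12 measured, had 7 higher and 5 lower (median 0.05). The class median of 0.34 became -0.53 under scaling to the hybridisation controls.

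**Figure D2:**
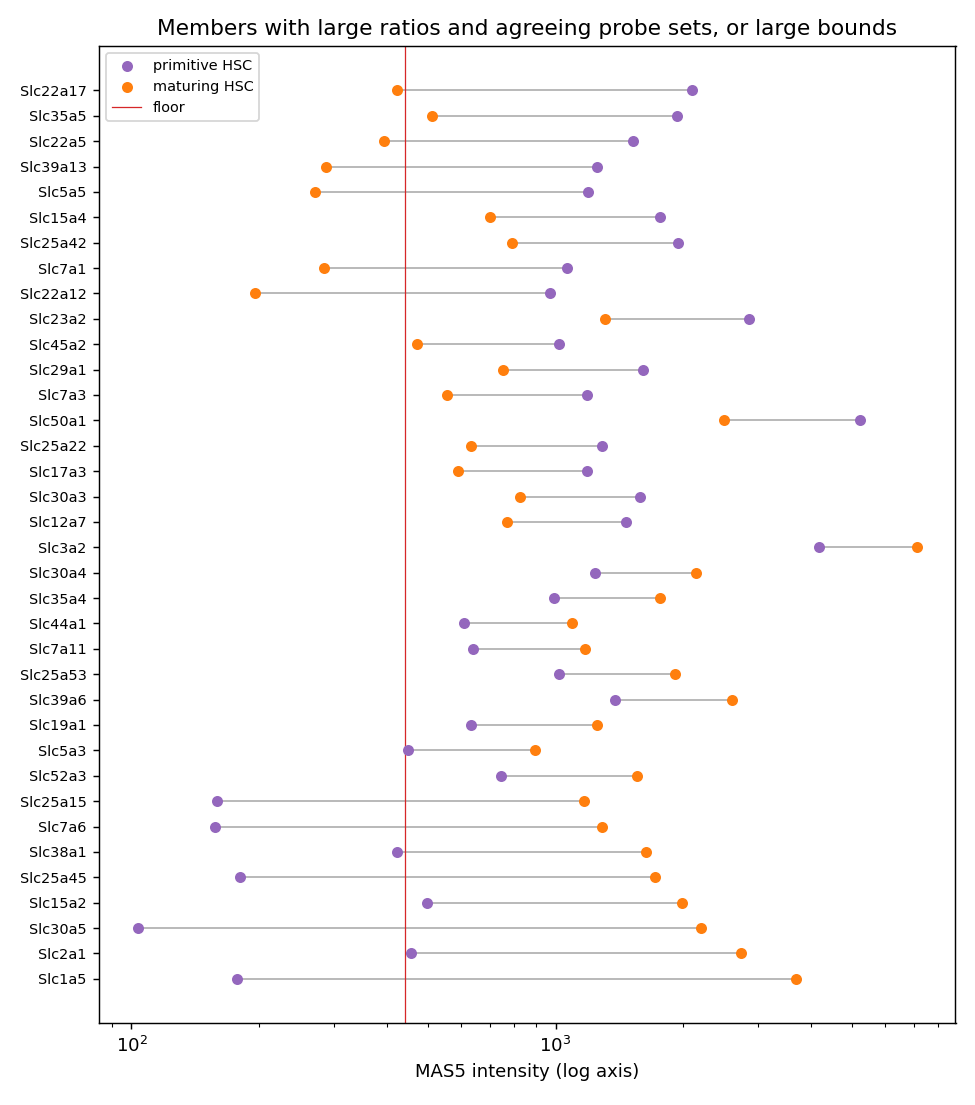
Intensity (log axis) of 36 members, for each direction 12 with the largest ratios among genes with agreeing probe sets and 6 with the largest bounds. Shown are primitive HSC (purple) and maturing HSC (orange), with the floor in red; members are ordered by their ratio. From Slc22a17 down to Slc12a7 the primitive value is the higher, and from Slc3a2 down to Slc1a5 it is the lower.

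Sugar carriers had members on both sides of equality. Slc2a3, the high-affinity glucose carrier GLUT3, read 10781 in primitive and 11214 in maturing HSC (-0.06), beside the Slc2a1 ratio of -2.58. The Slc2a3 ratio was -0.43 after quantile normalization, -0.47 after lowess and -1.03 on the hybridisation controls. A second bright Slc2a3 probe set read 4847 and 7100.4 (-0.55). Slc50a1, a sugar carrier of the Golgi, read 5218 in primitive and 2495 in maturing HSC (1.06). Slc5a3, the sodium-coupled importer of myo-inositol, read 448.1 and 894.0 (-0.996).

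Of 22 matched sugar and Slc5 genes, 15 were measured. They were 7 higher and 8 lower in primitive HSC, with a median of -0.06, and 3 were at least 2-fold higher (Slc5a5, the iodide carrier, at least 2.70-fold, Slc45a2 at 1.11 and Slc50a1) and 1 at least 2-fold lower (Slc2a1). In the deposited values, the carriers of lactate and pyruvate lay close to equal. Slc16a1 read 2791 in primitive and 2538 in maturing HSC (0.14). Slc16a3 read 676.6 and 548.6 (0.30). On the hybridisation controls Slc16a1 was at -0.84 and Slc16a3 at -0.67. With bounds entered at their bound, no member of the 6 measured carboxylate carriers was 2-fold apart. Slc16a4, Slc13a1 and Slc16a6 each had 1 array under the floor, so their ratios are bounds and the differences may be larger. With the floor at percentile 25, Slc16a4 and Slc13a1 were at least 4-fold lower in primitive HSC.

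The mitochondrial carriers, Slc25, were the family with most measured members, 28 of 33, with 23 above the floor on both arrays. They were split evenly, 14 higher and 14 lower in primitive HSC, with a median of -0.01, or 0.12 over the 23. The carriers of energy exchange were bright, and their deposited values lay close together. Slc25a5, which exchanges ADP for ATP, read 33988 in primitive and 33105 in maturing HSC (0.04). Its 8 probe sets ran from -0.49 to 0.47. Slc25a3, the phosphate carrier that feeds ATP synthesis, read 23342 and 23998 (-0.04). Neither closeness held under every scaling. Slc25a5 was at -0.74 after quantile normalization, -0.72 after lowess and -0.94 on the hybridisation controls, and Slc25a3 at -0.73, -0.69 and -1.01. Rescaled to the 2% trimmed mean, Slc25a5 stayed at 0.04 and Slc25a3 at -0.04. With the median ratio set to 0, Slc25a5 was at -0.05 and Slc25a3 at -0.13.

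Slc25a4, the other measured ADP and ATP exchanger, read 6976 in primitive and 5288 in maturing HSC (0.40). Its 3 measured probe sets lay between 0.33 and 0.47. Several probe sets of Slc25a5 carry names that mark shared sequence, so they can take up signal of near-identical copies. Slc25a39, needed for glutathione import into mitochondria, read 9657 and 6552 (0.56), with its other 2 probe sets at 1.21 and 1.33. Slc25a51, the NAD carrier, read 4232 and 2461 (0.78), with a second probe set at 0.95.

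Higher in primitive HSC by more than 2-fold were 3 mitochondrial carriers. Slc25a46, an outer membrane protein of mitochondrial shape, read 2016 in primitive and 702.7 in maturing HSC (1.52), although its second probe set read 151.6 and 485.2. Slc25a42, the carrier of coenzyme A, read 1946 and 788.8 (1.30). Slc25a22, a glutamate carrier, read 1285 and 631.5 (1.03).

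At least 2-fold lower were 4. Slc25a45 read 180.5 in primitive and 1712 in maturing HSC, at least 3.88-fold lower in primitive. Slc25a15, the ornithine carrier of the urea cycle, read 158.8 and 1167, at least 2.65-fold lower, and Slc25a36, a pyrimidine nucleotide carrier, read 23.9 and 985.2, at least 2.23-fold lower. Slc25a30 read 969.1 and 2045 (-1.08), and its 4 measured probe sets ran from -1.72 to 2.04, on both sides of 0. In Slc25a44, likewise, the brightest probe set stood at 0.67 and another at -1.97.

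In the deposited values, carriers linked to haem synthesis stood near equal. Slc25a37, the iron carrier mitoferrin of red cell precursors, read 2372 in primitive and 1969 in maturing HSC (0.27). Slc25a28, its paralogue in other cells, read 747.1 and 689.2 (0.12). Slc25a38, the glycine carrier of haem synthesis, read 882.3 and 879.9 (0.00). On the hybridisation controls Slc25a37 was at -0.71 and Slc25a38 at -0.97. Among erythroid markers, 3 of 8 on the array were measured and their genes for haemoglobin (Hba-a1) and haem synthesis (Alas2) were under the floor on both arrays. The summed intensity of the 8 was 4514 in primitive and 2632 in maturing HSC. Of the 3 measured, Klf1 read 1652 and 444.5, Gata1 1063 and 672.0, and Epor 781.2 and 952.8.

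**Figure D3:**
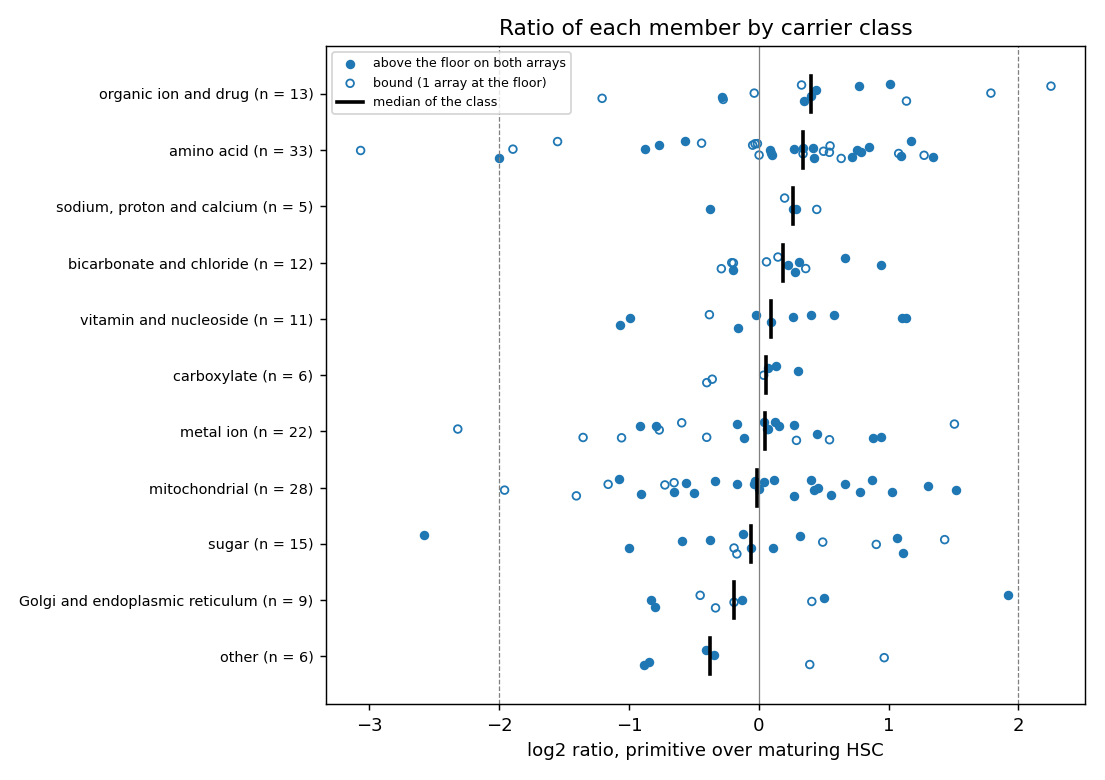
Log2 ratio of primitive over maturing HSC for each member (points) by carrier class, with the class median as a black bar; open points are bounds, and dashed lines mark 4-fold. Class medians run from -0.38 for the remaining families to 0.40 for organic ion and drug carriers, and the members of a class spread on both sides of 0 in each of the 11 classes drawn.

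Zinc carriers included the metal carriers that read lowest in primitive HSC relative to maturing HSC. Besides Slc30a5, the importer Slc39a14 read 165.6 in primitive and 1126 in maturing HSC, at least 2.55-fold lower. Slc39a7, which releases zinc from the endoplasmic reticulum, read 213.0 and 917.1, at least 2.08-fold lower. Slc39a6, a zinc importer of the plasma membrane, read 1379 and 2603 (-0.92), with its second probe set at 453.6 and 1985 (-2.13). Slc39a13, a zinc carrier of intracellular membranes, went the other way with 1254 and 288.2, at least 2.84-fold higher.

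The zinc exporters Slc30a4 and Slc30a3 stood at -0.79 and 0.95. Slc30a4 read 1238 in primitive and 2140.2 in maturing HSC. Slc30a3 read 1585 and 822.9. Of 9 measured Slc39 importers, 6 were lower and 3 higher in primitive HSC. Of 6 measured Slc30 exporters, 3 were lower and 3 higher. Across all 22 measured metal ion carriers the median was 0.05, with 12 higher and 10 lower.

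Among iron carriers, Slc40a1, the iron exporter ferroportin, read 1110.3 in primitive and 603.9 in maturing HSC (0.88). Its second probe set read 149.4 and 450.3. Slc11a2, the importer DMT1, read 787.4 and 577.3 (0.45) with probe sets on both sides of 0. Slc11a1, an iron and manganese carrier of phagocyte vesicles, read 412.0 and 750.0 and was at least 1.70-fold lower. Macrophages are rich in ferroportin and Slc11a1, and 10 macrophage markers on the array summed to 7873 in primitive and 4725 in maturing HSC. Of 8 measured, 6 were higher and 2 lower (Csf1r at 1159 and 1847, Vcam1 at 218.3 and 568.3). C1qa and Cd163 were under the floor on both arrays. The part of macrophages in these values was not tested.

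Of the organic ion and drug carriers, 13 of 30 matched genes were measured, with 9 higher and 4 lower in primitive HSC and a median of 0.40, which became -0.53 under scaling to the hybridisation controls. At least 2-fold higher were 4 of them. Besides Slc22a17 these were Slc22a5, the carnitine importer, at least 3.45-fold with 1523 in primitive and 393.3 in maturing HSC, Slc22a12 at least 2.20-fold and Slc17a3 at 1.01. The second probe set of Slc22a5 read 917.1 and 937.7 (-0.03), so its direction rests on 1 probe set, and its ratio was -1.01 under that scaling, where the second probe set was the brighter. Slc22a8, a kidney carrier of organic anions, was at least 2.31-fold lower.

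Vitamin and nucleoside carriers had members on both sides of 2-fold. Slc23a2, a vitamin C importer, read 2866 in primitive and 1309 in maturing HSC (1.13). Its second probe set was at 1.18. Slc29a1, the equilibrative nucleoside carrier ENT1, read 1610.1 and 750.3 (1.10). Slc52a3, a riboflavin importer, read 742.7 and 1557 (-1.07). Slc19a1, the reduced folate carrier, read 631.2 and 1252 (-0.99), and its second measured probe set was at -1.44. Slc19a2, a thiamine carrier of the same family, stood at 0.09.

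In the Golgi and endoplasmic reticulum, Slc35a5 read 1934 in primitive and 510.3 in maturing HSC (1.92). Its 4 measured probe sets ran from 0.30 to 1.92. Slc35a4 (-0.83) and Slc35a2, the carrier of UDP-galactose (-0.80), read lower in primitive HSC on their brightest probe set. A second Slc35a2 probe set was at 0.58, and the probe sets of Slc35a1, the carrier of CMP-sialic acid, disagreed at -0.13 and 0.65. Of 9 measured members of this class 3 were higher and 6 lower, with a median of -0.19.

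With bounds entered at their bound, ion carriers of the Slc4, Slc12 and Slc26 families were all within 2-fold on their brightest probe set. These were 12 measured members, including Slc4a1ap. In 3 only the primitive array passed the floor and in 3 only the maturing array, so these differences may be larger. The second probe set of Slc26a2 read 1209.7 in primitive and 341.5 in maturing HSC, a bound of 1.46. Slc12a7, a potassium and chloride exporter, read 1470.0 in primitive and 766.7 in maturing HSC (0.94). Slc12a2, the sodium, potassium and chloride importer, read 1697 and 1396 (0.28), but its other 2 probe sets read 123.2 and 1289, and 99.2 and 453.4. The 5 members of the Slc8, Slc9 and Slc24 families, of which Slc9a3r1 and Slc9a3r2 are not carriers, were also within 2-fold when so entered. Slc8a3 (601.1 in primitive and 122.9 in maturing HSC) and Slc9a8 (506.4 and 66.5) gave bounds only. With the floor at percentile 25 the Slc8a3 ratio was 2.096. Slc20a1, the phosphate importer, read 5267 and 3610.4 (0.54). The urea carrier Slc14a1 read 861.7 and 202.8, at least 1.95-fold higher, and its second probe set 407.3 and 623.7 (-0.50). The choline carrier family members Slc44a2 (-0.88) and Slc44a1 (-0.85) read lower in primitive HSC, and 1 of 3 Slc44a2 probe sets was at 0.86.

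**Figure D4:**
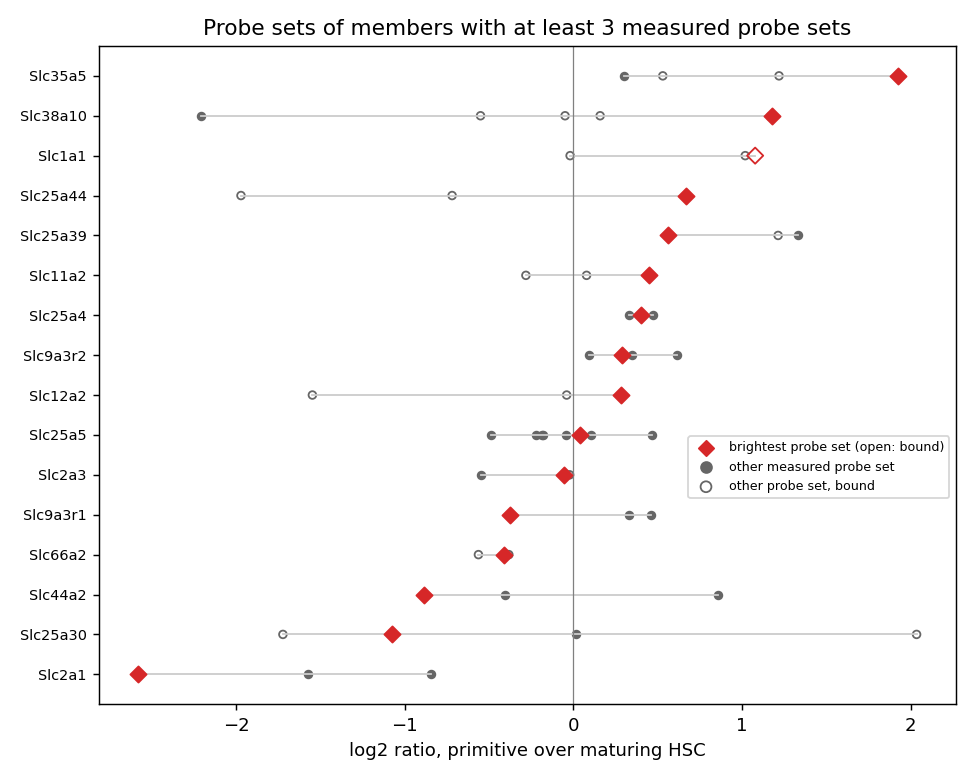
Log2 ratio of primitive over maturing HSC for every measured probe set of the 16 members with at least 3 of them; red diamonds are the brightest probe set, open symbols are bounds. The probe sets of Slc2a1, Slc2a3, Slc66a2, Slc9a3r2, Slc25a4, Slc25a39 and Slc35a5 lie on 1 side of 0, and those of the other 9 members lie on both sides.

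How far probe sets agree limits how finely the ratios can be read. Of 46 members with more than 1 measured probe set, all probe sets went the same way in 26 (56.5%), against 55.6% of 2763 such genes. Log2 ratios of probe sets for the same gene had an SD of 0.70 in 20 members and of 0.82 in 1318 genes. Ratios below about 2-fold are of that size.

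Partner genes of the carriers were also counted. All 10 genes for insertion of carriers into the inner membrane were above the floor on both arrays, 7 higher and 3 lower in primitive HSC. The small chaperones Timm13 (4815 in primitive and 1258 in maturing HSC, 1.94) and Timm10 (8283 and 2941, 1.49) were higher. The receptor Tomm70a (670.7 and 2086, -1.64) was lower, and so was the brightest Tomm20 probe set (855.4 and 8091, -3.24), whose 5 probe sets ran from -3.24 to 0.39.

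Of 10 measured mitochondrial transport genes outside the Slc names, 4 were higher and 6 lower. The channel genes of the outer membrane, Vdac1 (-1.29) and Vdac2 (-1.10), read lower, with probe sets of Vdac1 up to 1.62, and Mpc1, a subunit of the pyruvate carrier, was at 0.84. Of 10 measured iron, copper and zinc genes, 6 were higher and 4 lower. Fth1, the ferritin heavy chain that stores iron, read 91521 and 21546 (2.09), and Tfrc, the transferrin receptor, read 1780.0 and 2526 (-0.50). Aco1, which binds iron-responsive elements when iron is low, read 266.0 and 4808, at least 10.9-fold lower in primitive HSC. The zinc-binding metallothioneins Mt1 and Mt2 stood at 0.95 and 0.65. Of 3 measured genes of the sodium pump and its chloride regulators, 1 was higher and 2 lower.

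Facts of the whole pair of arrays bear on every ratio. The 18 hybridisation control probe sets were brighter on the primitive array, with a median log2 ratio of 0.97. Scaling to them moved the median of all measured genes to -0.74 and that of the members to -0.76, with 23 of 156 members higher in primitive HSC, so each direction given here is relative to equal array means. Among others, Slc22a5, Slc12a7, Slc30a3, Slc14a1, Slc40a1 and Slc1a4 read lower in primitive HSC under it. Of 9 HSC markers on the array, all were measured, 8 on each array, including Kit, Cd34 and Procr. Of 10 neutrophil and monocyte markers, 6 were higher and 4 lower in primitive HSC. Their sum, 118458 in primitive and 66427 in maturing HSC, was carried by S100a8, Camp, Lyz2 and S100a9, while Mpo, Csf3r, Ltf and Ctsg were each at least 2-fold lower in primitive HSC. Of 5 measured T and natural killer cell markers, 4 were higher and 1 lower. Their list summed to 56532 in primitive and 10693 in maturing HSC. The largest values in primitive HSC were Ccl5 (37798, and 1511 in maturing HSC) and Cd3d (8674 and 44.2). Nkg7 read 6299 and 7932, the largest value in maturing HSC. Cd3e and Cd3g were under the floor on both arrays. Of 5 measured B cell markers, 2 were higher and 3 lower, and the list summed to 2558 and 3151. The part of these cell types in the carrier values was not tested.

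Ratios were also set beside gene span. Members under 10 kb had a median of 0.36 (30 genes), those of 10 to 40 kb 0.04 (87 genes) and those over 40 kb 0.05 (48 genes). All measured genes had 0.30 (2446), -0.01 (3727) and -0.05 (2666). Across 105 members above the floor on both arrays, Pearson's r between log2 span and the ratio was -0.11 and Spearman's rho -0.09, and across 5516 genes they were -0.16 and -0.17. These points come from the same 2 libraries.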

How the data were processed

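Per the submitters' processing notes, the authors made the deposited signal intensities with MAS5, on a linear scale; these sources do not give its version, a genome build or detection calls. The 2% trimmed mean was 1000.6 on the primitive and 1000.4 on the maturing array, so average intensity is equal by construction. Per the labels' protocols, poly(A)-primed cDNA was amplified by PCR, size-fractionated and cloned before labelling, each of which can change a transcript's share.

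Of 22690 probe sets, 64 were controls, 20380 had 1 symbol in the platform annotation, 691 several and 1555 none. Entrez identifiers of all 165 members were in RefSeq, and 0 symbols changed. For each gene the probe set with the highest mean of the 2 arrays was used, on the values as deposited. Intensities under 441, the rounded pooled median of non-control probe sets, were set to 441. Taking a gene as measured when any of its probe sets passed would give 166 members. Carrier classes follow family numbers, and a class median needs 5 measured members. Protein length had been planned and genomic span was used instead, since no protein table was at hand.

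The named members were, in each direction, the 6 largest bounds and the 12 largest ratios of members that both arrays measured and whose probe sets agreed in direction, the 3 brightest and both extremes of each class, 38 listed genes with roles in blood cells (31 measured), and those nearest to 441. Other members and probe sets named were chosen after their values were seen, as were partner genes singled out. Members and lists were chosen with earlier results of these data known. The number of arrays limits the precision. The steps were tested on simulated data. Computation used pandas 2.3.3 with numpy 2.4.6, statsmodels 0.14.6 for lowess, scipy 1.17.1 for rank correlation and matplotlib 3.10.9 for figures, under Python 3.11.15. Alternatives were other array scalings, floors, fold thresholds, probe set choices and membership.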

Additional observations from a re-analysis of the deposited data

How the results depend on the processing

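No paired analysis was possible because each group has 1 array, and for the same reason no replicate could be left out. The main counts were 1 member at least 4-fold higher and 3 at least 4-fold lower in primitive HSC. The lower count became 5 with the median ratio set to 0 (3.03%, against 5.47% of all measured genes). The higher count became 2 after quantile normalization (1.24%, against 3.60%). With the floor at percentile 25 (140.6) the counts were 9 and 14, where 6.78% and 8.89% of all measured genes were. At percentile 75 both were 0, where 3.31% and 2.53% were. Over members above the floor on both arrays they were 0 and 1, where 3.60% and 3.49% of such genes were. Without shared probe sets they were 0 and 2, where 3.13% and 4.65% were, since Slc22a17 has no other probe set and Slc2a1 falls below 4-fold. With the median of probe sets the lower count was 2, also without Slc2a1, where 3.265% of all measured genes were lower. At 2-fold the counts were 19 and 14, where 15.6% and 17.6% of all measured genes were. At 8-fold they were 0 and 1, where 0.75% and 0.68% were. Shifts under another floor, threshold or probe set choice follow from its construction; for the scalings the cause was not tested. Scaling to the hybridisation controls gave 0 and 10 (6.41% of 156 members lower, against 13.4% of all measured genes) and a median of -0.758 over members. Under it the class medians were -0.8197 for Golgi and endoplasmic reticulum, -0.5339 for amino acid, -0.6877 for bicarbonate and chloride, -0.8452 for carboxylate, -0.8994 for metal ion, -1.01 for mitochondrial, -0.5322 for organic ion and drug, -0.7105 for sodium, proton and calcium, -0.6773 for sugar, and -0.6086 for vitamin and nucleoside carriers. The median of all measured genes was -0.74 under it, against 0.07 as deposited. Of the values of named members under an alternative, 714 moved by less than the SD between probe sets and 95 by more, 56 of these under the hybridisation control scaling. The 714 take in values that could not move. These were 78 with symbols ending after the number and 57 over members above the floor on both arrays. A further 80, rescaled to the 2% trimmed mean, could hardly move, since those means were already equal. No 4-fold member changed sign in an alternative that gave a value. Without detection calls, what lies near the floor cannot be told from background.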

Other observations

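Genes with Slc or Slco symbols outside the member rule, mainly the further nucleotide sugar branches of Slc35 and the organic anion carriers Slco, numbered 28, of which 17 were measured, 7 higher and 10 lower in primitive HSC. Slc35f6 read 5212 in primitive and 55.4 in maturing HSC, at least 11.8-fold higher in primitive, while a second probe set read at -0.71. Slc35b2, the Golgi importer of the sulfate donor, read 680.2 and 1626 (-1.26), and Slco3a1 read 122.3 and 1136, at least 2.58-fold lower in primitive HSC, with both measured probe sets lower. These were chosen after their values were seen.

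Further, 3 probe sets with several symbols match the name pattern and belong to no member. The one shared by Slc9a7 and 6330509M05Rik read 41.7 in primitive and 849.2 in maturing HSC. The other 2 were under the floor on both arrays.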
